A study of Mus musculus with 16 samples.

Results

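The genes described here are 10 mRNAs: Nr3c1, which encodes the glucocorticoid receptor, 6 genes that glucocorticoids are known to induce (Fkbp5, Tsc22d3, Sgk1, Zbtb16, Pdk4 and Plin4), the metallothionein genes Mt1 and Mt2, and Errfi1. They were picked by gene symbol from the 21878 mRNAs of the count and FPKM tables. All 10 were found, and all 10 were among the 17885 mRNAs that were tested because their counts over all libraries summed to 16 or more. RNA sequencing was performed on 16 libraries, 1 per mouse, from female wild-type C57BL/6 mice that were 8 weeks old. In the EAE group (EAE 1 to EAE 8), experimental autoimmune encephalomyelitis was induced with MOG residues 35 to 55 in complete Freund's adjuvant and with pertussis toxin on days 0, 2 and 7. The PBS group (PBS 1 to PBS 8) received PBS injections. The treatment labels give a different last MOG residue to each EAE mouse, residue 55 to EAE 1 and so on up to residue 62 for EAE 8. Brains were taken on day 14 after induction, at the peak of disease by the methods, and CD11b+/CD45int cells were sorted as microglia after a Percoll gradient. EAE is an induced autoimmune model with demyelination in the central nervous system, and the comparison asks which of these stress-hormone and metal-responsive mRNAs differ between its peak and control mice.

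Glucocorticoids are steroid hormones that the adrenal gland releases in a daily rhythm and during stress. They bind the glucocorticoid receptor, which leaves its chaperones in the cytosol, enters the nucleus and binds glucocorticoid response elements (GREs), DNA sites made of a pair of inverted arms. In the brain the receptor is present in neurons, glia and vessel cells, and its targets include chaperones, kinases, transcription factors and metabolic enzymes. Metallothioneins are small cysteine-rich proteins that bind zinc and copper and are abundant in astrocytes. Their genes respond to zinc through the factor MTF1, which binds metal response elements (MREs), and also to glucocorticoids and inflammatory signals.

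Total counts per library ranged from 24587443 to 34184576. The labelled cell type was set against marker genes. The mean FPKM of 17 microglia markers was 14.9 to 25.3 per library, and in all 16 libraries it was below the means of the astrocyte list (107 to 162), the neuron list (90.8 to 114) and the oligodendrocyte list (92.3 to 129). The values below therefore describe RNA in which markers of other brain cells were more abundant than those of microglia. In such bulk RNA, fewer cells of a type and less RNA per cell cannot be told apart. Within each group, 3 libraries were more alike than the rest (EAE 6, 7 and 8, and PBS 5, 7 and 8). The median absolute log2 difference between them over all tested mRNAs was 0.0979 to 0.115, against 0.153 to 0.297 for the other pairs within a group. No batch is named in the labels or the text, so results are also given within these 6 libraries and within the other 10. The 6 were picked after the data were seen, for their small spread, and far more mRNAs passed an edgeR adjusted p of 0.05 there, 24.1% of those tested, against 0.0745% within the other 10 and 4.29% with a term for the 2 sets in the model.

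The levels of the 10 mRNAs spanned a wide range. In FPKM, which corrects for length, the medians over the 16 libraries placed Mt2 first, at 335.6, and Mt1 second, at 236.9. Sgk1 followed at 36.2, then Zbtb16 at 23.1, Fkbp5 at 21.98, Plin4 at 13.97, Tsc22d3 at 13.4, Errfi1 at 12.4, Nr3c1 at 11.96 and Pdk4 at 5.96. Mt2 was above Mt1, and Sgk1 above Zbtb16, in all 16 libraries. The ranges of neighbours in this order separated completely only between Mt1 and Sgk1 and between Nr3c1 and Pdk4, and from Plin4 to Nr3c1 all neighbours overlapped in their ranges. Plin4 was above Tsc22d3 in 8 of 16 libraries.

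**Figure D1:**
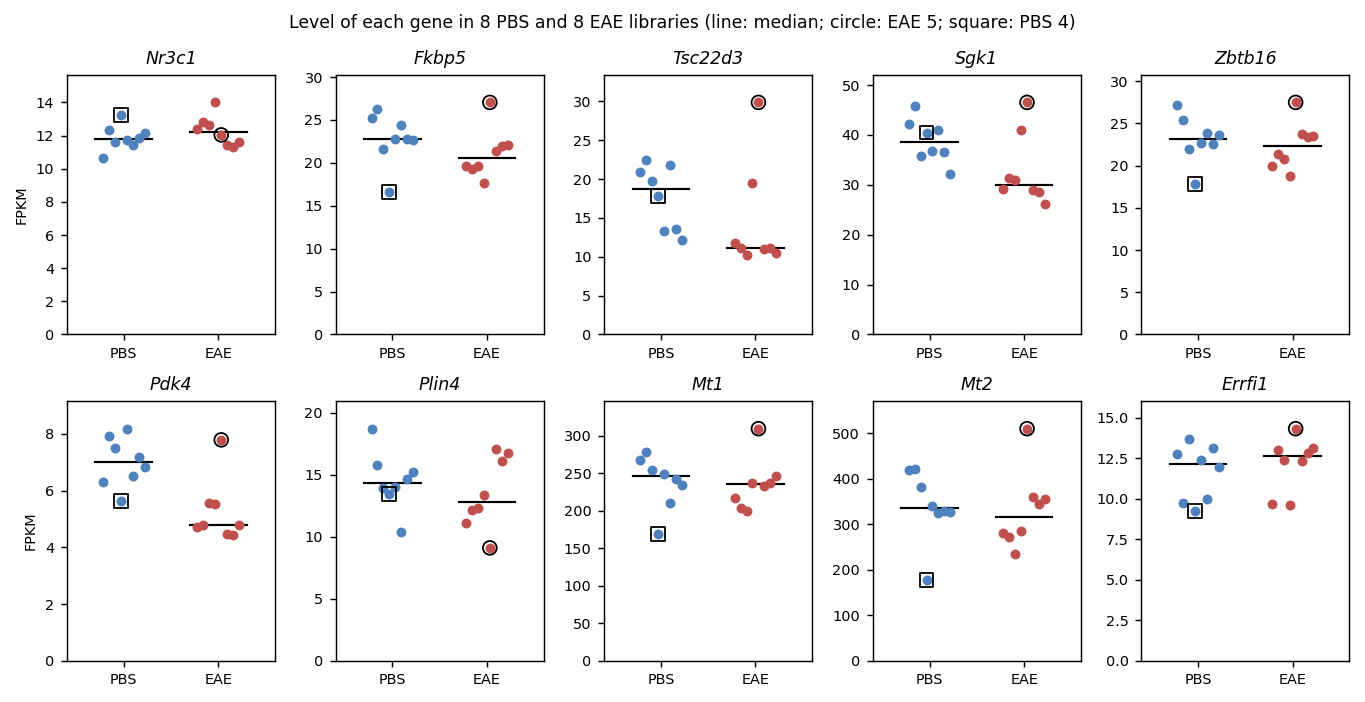
FPKM of each of the 10 genes in the 8 PBS (blue) and 8 EAE (red) libraries, ordered by library number within a group, with a line at the group median, a circle around EAE 5 and a square around PBS 4. For Pdk4, 7 of 8 EAE libraries lie below all PBS libraries, and EAE 5 is the highest EAE library for 8 of the 10 genes.

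The groups were compared with edgeR's quasi-likelihood test on raw counts, and p-values were adjusted by Benjamini-Hochberg over all 17885 mRNAs. Of the 10 genes, 9 had a negative log2FC in EAE mice, with a median of -0.13. Of all tested mRNAs, 47.3% had a negative log2FC and the median was 0.01. Among those with an average log2 CPM over 3, 54.9% had a negative log2FC and the median was -0.01. With library totals in place of TMM, 8 of the 10 genes had a negative log2FC, as did 6195 of all 17885 tested mRNAs. Nr3c1 turned positive. Only Pdk4 passed an adjusted p of 0.05. Over all tested mRNAs, 2.42% passed in either direction, 1.76% as lower and 0.654% as higher in EAE mice. The balance of directions turned with the scaling, in that 315 of the 432 called mRNAs were lower after TMM, 103 of 329 with library totals alone and 73 of 205 by limma on log2(FPKM + 0.1). Pdk4 and Sgk1 had an unadjusted p under 0.05, as did 17.4% of all tested mRNAs. With the study's further threshold of a |log2FC| over 1, edgeR called 0 of the 10 genes, against 0.117% of all tested mRNAs, and DESeq2 also called 0.

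The receptor mRNA, Nr3c1 (chromosome 18, 39410545 to 39519421 on GRCm38), did not separate the groups. The lowest, median and highest FPKM of Nr3c1 were 11.3, 12.2 and 14 in EAE libraries and 10.7, 11.8 and 13.3 in PBS libraries. The ranges overlapped almost fully, with EAE 4 and PBS 4 at the top of their groups. The log2FC was -0.01 (SE 0.05, edgeR adjusted p = 0.973), and its sign depended on the library scaling, being negative after TMM and positive with library totals alone.

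Pdk4 (chromosome 6, 5483351 to 5496309) encodes a kinase that inhibits the pyruvate dehydrogenase complex and so spares glucose. In FPKM, Pdk4 had a lowest, median and highest value of 4.45, 4.78 and 7.78 in EAE libraries and 5.62, 7.01 and 8.18 in PBS libraries. All EAE libraries other than EAE 5 lay below the lowest PBS library, PBS 4, whereas EAE 5 lay inside the PBS range. Pdk4 fell by 27.6% in EAE mice, its log2FC being -0.47 (SE 0.11, edgeR adjusted p = 0.0254), and the exact permutation test on FPKM gave p = 0.00575 (two-sided, unadjusted). Within the 6 most alike libraries, where 24.1% of all tested mRNAs passed, the log2FC was -0.73 (SE 0.08, edgeR adjusted p = 7.49e-07), and the 3 EAE libraries lay below the 3 PBS libraries. Within the other 10 it was -0.32 (SE 0.14, edgeR adjusted p = 0.421). When single libraries were left out, the call held in 10 of 16 edgeR fits and was lost without EAE 1, EAE 2, EAE 6, EAE 8, PBS 2 or PBS 5, with adjusted p-values from 0.0517 to 0.0613. It was also lost by limma on log2(FPKM + 0.1), at an adjusted p of 0.0546.

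Sgk1 (chromosome 10, 21882184 to 21999903) encodes a serum- and glucocorticoid-induced kinase that acts on ion channels and transporters. From lowest through median to highest, the FPKM of Sgk1 was 26.2, 29.99 and 46.5 in EAE libraries and 32.2, 38.7 and 45.7 in PBS libraries. EAE 4 and EAE 5 lay high, and the other 6 EAE libraries lay below the lowest PBS library, PBS 8. The log2FC was -0.29 (SE 0.10, unadjusted p = 0.00792, edgeR adjusted p = 0.124; exact permutation p = 0.0605 on FPKM, two-sided). Without EAE 5, Sgk1 passed the edgeR test with a log2FC of -0.38 and an adjusted p of 0.0126, and without EAE 4 its adjusted p was 0.0409. More mRNAs passed in these fits as well, 5.05% of all tested without EAE 5 and 7.38% without EAE 4. It also passed within the 6 most alike libraries, as did 24.1% of all tested mRNAs, with a log2FC of -0.36 (SE 0.05, edgeR adjusted p = 5.44e-06). With a term for the 2 sets of libraries in the edgeR model, which 4.29% of all tested mRNAs passed, its adjusted p was 0.0386. Within the other 10 libraries the log2FC was -0.26 (SE 0.12, edgeR adjusted p = 0.434).

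Tsc22d3 (chromosome X, 140539528 to 140600659) encodes GILZ, a leucine zipper protein that mediates part of the anti-inflammatory action of glucocorticoids. The lowest, median and highest FPKM of Tsc22d3 were 10.2, 11.1 and 29.9 in EAE libraries and 12.2, 18.8 and 22.4 in PBS libraries. The pattern resembled that of Sgk1 in that 6 EAE libraries lay below the lowest PBS library, PBS 8, while EAE 5, at 29.9, and EAE 4, at 19.5, lay above the PBS median. The log2FC was -0.35 (SE 0.20, edgeR adjusted p = 0.392; exact permutation p = 0.255, two-sided). Without EAE 5 it was -0.59, with an adjusted p of 0.0277 from edgeR, and this was the only library whose removal gave a call. Within the 6 most alike libraries, with their share of 24.1% over all tested mRNAs, it was -0.29 (SE 0.06, edgeR adjusted p = 7.82e-04), and within the other 10 it was -0.38 (SE 0.23, adjusted p = 0.625).

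**Figure D2:**
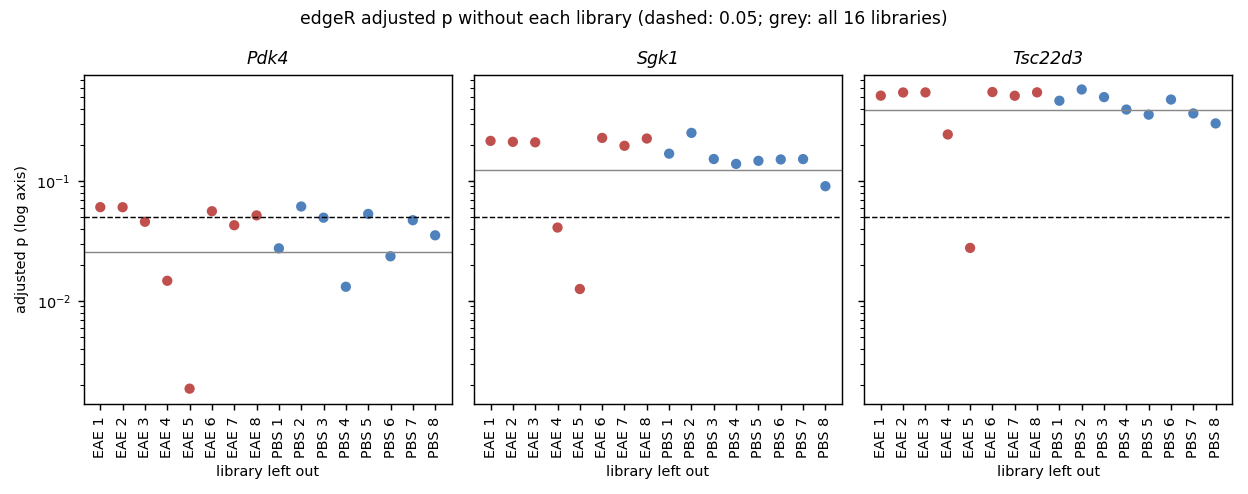
Adjusted p of Pdk4, Sgk1 and Tsc22d3 from edgeR (log axis) after each of the 16 libraries was left out in turn, with EAE libraries in red and PBS libraries in blue, a dashed line at 0.05 and a grey line at the value with all 16 libraries. The lowest point of all 3 genes is the fit without EAE 5, at 0.00186 for Pdk4, 0.0126 for Sgk1 and 0.0277 for Tsc22d3.

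Fkbp5 and Zbtb16 did not pass the test. Fkbp5 (chromosome 17, 28399094 to 28517527) encodes FKBP51, a co-chaperone that lowers the receptor's affinity for hormone and is widely used as a readout of receptor activity. In FPKM, Fkbp5 had a lowest, median and highest value of 17.7, 20.5 and 27.0 in EAE libraries and 16.6, 22.8 and 26.2 in PBS libraries. EAE 5 was the only EAE library above the PBS median, and PBS 4 was the lowest of all 16. The log2FC was -0.16 (SE 0.08, edgeR adjusted p = 0.333; exact permutation p = 0.252, two-sided). Zbtb16 (chromosome 9, 48654297 to 48836222) encodes the zinc finger transcription factor PLZF. From lowest through median to highest, the FPKM of Zbtb16 was 18.7, 22.4 and 27.5 in EAE libraries and 17.9, 23.2 and 27.2 in PBS libraries. The ranges overlapped almost fully, and the log2FC was -0.10 (SE 0.08, edgeR adjusted p = 0.559). Within the 6 most alike libraries it was 0.01, and within the other 10 it was -0.17, neither of them called.

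Plin4 (chromosome 17, 56100591 to 56109803) encodes a perilipin that coats lipid droplets. The lowest, median and highest FPKM of Plin4 were 9.11, 12.8 and 17.1 in EAE libraries and 10.4, 14.3 and 18.7 in PBS libraries. Here EAE 5 was the lowest of all libraries, and EAE 6, 7 and 8 were the highest of the EAE group. The log2FC was -0.16 (SE 0.12, edgeR adjusted p = 0.540), but its direction differed between the sets of libraries. Within the 6 most alike libraries Plin4 was called higher in EAE mice, like 11% of all tested mRNAs, its log2FC being 0.16 (SE 0.04, edgeR adjusted p = 0.00641), while within the other 10 the log2FC was -0.39 (SE 0.13, adjusted p = 0.271). The difference between the sets was not tested. Exons of Plin4 overlap exons of Hdgfl2 on the opposite strand, and the strand setting of the counting is not given in the sources used here, so reads of the pair may not have been separated.

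Mt1 and Mt2 were the most abundant of the 10 mRNAs and did not differ between the groups beyond their spread. They lie next to each other on chromosome 8 of GRCm38, Mt2 from 94172664 to 94173568 and Mt1 from 94179082 to 94180327, with 5513 bases between them. Mt1 had a lowest, median and highest FPKM of 199.3, 235.2 and 309.5 in EAE libraries and 169.3, 245.7 and 278.1 in PBS libraries. Mt2 had 234.5, 315.4 and 510.4 in EAE libraries and 177.1, 335.6 and 421.9 in PBS libraries. EAE 5 was the highest and PBS 4 the lowest of all 16 libraries for both genes. The log2FC was -0.07 for Mt1 (SE 0.09, edgeR adjusted p = 0.759) and -0.09 for Mt2 (SE 0.15, edgeR adjusted p = 0.809), with exact permutation p-values of 0.863 and 0.815 (two-sided). The ratio of Mt2 to Mt1 counts was 0.861 to 1.21 in the EAE group and 0.765 to 1.15 in the PBS group, so the 2 groups overlapped in this ratio as well. The longest stretch of identical bases between any Mt1 and Mt2 transcript in GENCODE M21 was 20, shorter than the reads of 150 bases. Exons of Mt2 also overlap those of the antisense gene Gm45774.

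Errfi1 (chromosome 4, 150853919 to 150868892), an inducible feedback inhibitor of the EGF receptor family, was the only gene of the 10 with a positive log2FC, at 0.02 (SE 0.09, edgeR adjusted p = 0.941). In FPKM, Errfi1 had a lowest, median and highest value of 9.58, 12.6 and 14.3 in EAE libraries and 9.23, 12.2 and 13.7 in PBS libraries. The libraries of both groups covered the same range, with EAE 1, EAE 4, PBS 2, PBS 4 and PBS 6 below all other libraries.

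The start regions of the metallothionein genes and of Sgk1 are shown because they hold matches to metal or glucocorticoid response elements and because Mt1 and Mt2 varied together. RefSeq start sites on GRCm38.p6 were found for 8 of the 10 genes, in 16 windows from 250 bases before to 30 bases after a start. No window was held for Nr3c1 or Zbtb16. Capitals mark matches, on either strand, to the MRE core (TGCACNC or TGCGCNC), the GRE core (ACANNNTGT) or the GRE arm (AGAACA, or TGTTCT on the other strand). The GRE core shares bases with the arms where they meet.
Mt2 (chr8:94172368-94172647, plus strand): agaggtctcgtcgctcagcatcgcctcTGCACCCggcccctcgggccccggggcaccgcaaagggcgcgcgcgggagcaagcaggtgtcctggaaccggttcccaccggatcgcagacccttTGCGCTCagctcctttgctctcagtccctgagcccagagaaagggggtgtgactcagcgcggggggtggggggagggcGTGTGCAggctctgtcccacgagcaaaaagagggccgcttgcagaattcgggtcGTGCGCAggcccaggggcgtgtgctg
Mt1 (chr8:94178839-94179118, plus strand): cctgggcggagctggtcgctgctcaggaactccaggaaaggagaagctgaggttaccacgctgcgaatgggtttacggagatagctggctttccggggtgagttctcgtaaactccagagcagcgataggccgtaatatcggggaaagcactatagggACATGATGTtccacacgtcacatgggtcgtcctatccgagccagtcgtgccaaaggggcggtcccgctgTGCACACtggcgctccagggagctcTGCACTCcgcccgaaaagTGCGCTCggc
Sgk1 (chr10:21993640-21993919, plus strand): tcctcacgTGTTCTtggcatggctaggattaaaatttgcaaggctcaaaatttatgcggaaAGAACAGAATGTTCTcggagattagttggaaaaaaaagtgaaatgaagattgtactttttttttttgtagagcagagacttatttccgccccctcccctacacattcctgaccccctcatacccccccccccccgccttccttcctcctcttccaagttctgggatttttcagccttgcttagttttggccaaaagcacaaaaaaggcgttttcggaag
Mt2 held 4 MRE cores, starting at -223, -128, -50 and 5 (the RefSeq start site is 1), and Mt1 held 3, at -23, 3 and 21. The annotations differ for Mt2, in that its window ends at 94172647, before the GENCODE gene start at 94172664. Over all 32851 mouse promoter windows of this length, 24.1% held at least 1 MRE core and 1.73% held 3 or more. Mt1 also held a GRE core at -92, which 6.42% of all windows held. The Sgk1 window, 1 of 6 for this gene, held 3 GRE arms, at -242, -189 and -180. The last 2 face each other across 3 bases, an arrangement found in 3 of all windows, or 0.00913%. A single GRE arm, which 17.8% of all windows held, was also found in 2 other Sgk1 windows and in 1 of 3 Tsc22d3 windows, and another Sgk1 window held a GRE core. Another Sgk1 window held 1 MRE core. The windows of Fkbp5, Pdk4, Plin4 and Errfi1 held none of these letters. A match describes the sequence and was not tested for binding.

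Some libraries stood apart for several of the 10 genes at once. EAE 5 was the highest of the EAE libraries for 8 of the 10 genes, Nr3c1 and Plin4 being the exceptions. It was the highest for 20.2% of all tested mRNAs, but also for 9 of the 12 astrocyte markers. After the group mean was subtracted, the log2 CPM of EAE 5 deviated by a mean of 0.37 over the 10 genes, from -0.54 for Plin4 to 1.16 for Tsc22d3. In the PBS group, PBS 2 was above the group mean for 9 of the 10 genes, with a mean deviation of 0.20. How many of all tested mRNAs had PBS 2 above the group mean was not computed, so this count cannot be read as particular to these genes. PBS 2 was the highest PBS library for 5 of the 10 genes and for 15.95% of all tested mRNAs, but also for 9 of the 12 astrocyte markers. PBS 4 was the lowest PBS library in log2 CPM for 6 of the 10 genes, against 20.9% of all tested mRNAs, and its deviation was lowest for Mt2, at -0.89. Marker genes of several cell types were also at an extreme in these libraries. EAE 5 had the highest summed CPM of the 12 astrocyte markers of all libraries, at 13300, against 9124 to 12090 in the other EAE libraries, and PBS 2 had the highest of the PBS group, at 12535. EAE 5 also had the highest summed CPM of the EAE group for the oligodendrocyte, endothelial and mural cell lists. PBS 4, at 11461, lay within the PBS range of 10585 to 12535 for the astrocyte sum, but was the lowest PBS library for 5 of the 12 astrocyte markers. Its summed CPM was the highest of the PBS group for the microglia list, at 761.1, and the lowest for the endothelial list, at 259.3, the mural cell list, at 117.6, and the neutrophil list, at 15.1. The part of these markers in the levels of the 10 genes was not tested.

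**Figure D3:**
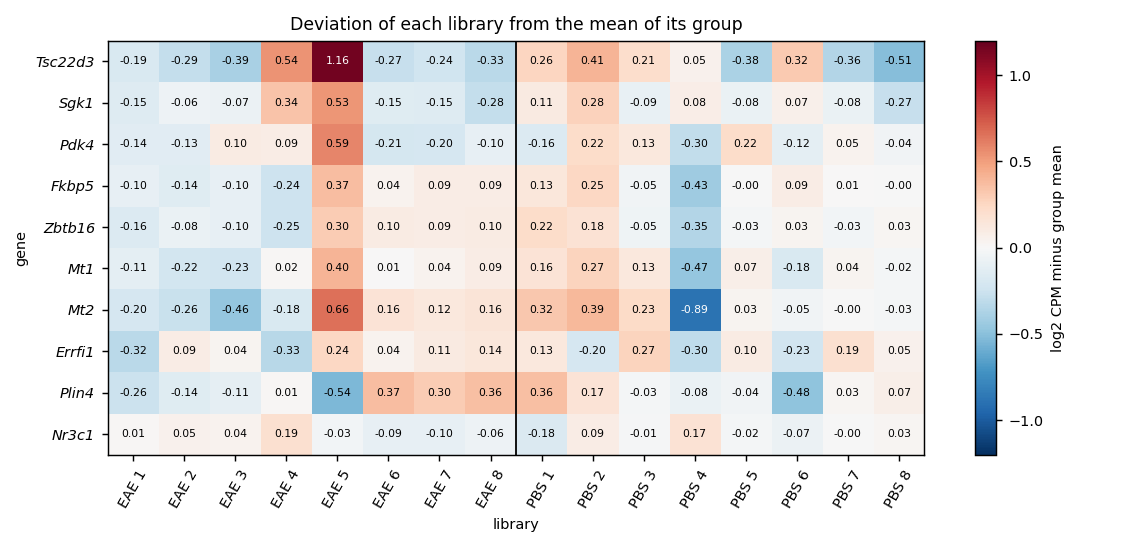
Deviation of log2 CPM from the mean of the library's own group for each of the 10 genes (rows) in each library (columns), with red for higher and blue for lower. The column of EAE 5 is red for 8 genes, reaching 1.16 for Tsc22d3, and PBS 4 reaches -0.89 for Mt2.

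Whether the genes varied together beyond the group difference was examined over the 16 libraries, with group means subtracted from log2 CPM. Of the 45 pairs, 34 had a positive Pearson r, and 9 had a permutation p under 0.05 after Benjamini-Hochberg adjustment over the pairs. The share of such pairs among all tested mRNAs was not computed. These counts therefore cannot be told apart from variation shared by many mRNAs. The permutation also treats the libraries of a group as exchangeable, although 3 in each group were more alike than the rest. In 100000 permutations within groups the smallest p possible is 1e-05. The genes fell into a set of Fkbp5, Zbtb16, Mt1 and Mt2 on one side and a pair of Tsc22d3 and Sgk1 on the other. Mt1 and Mt2 had r = 0.95 and rho = 0.93 (adjusted permutation p = 4.50e-04 for r), and r was 0.86 without EAE 5 and PBS 4, the 2 libraries farthest from the median of Mt1. Fkbp5 and Zbtb16 had r = 0.96 and rho = 0.96 (adjusted permutation p = 4.50e-04), and r was 0.93 without EAE 4 and PBS 4. Each of Fkbp5 and Zbtb16 was also correlated with each metallothionein, with r from 0.79 for Zbtb16 and Mt1 to 0.91 for Fkbp5 and Mt2. Tsc22d3 and Sgk1 had r = 0.92 and rho = 0.70 (adjusted permutation p = 9.90e-04 for r), and r was 0.83 without EAE 5 and PBS 2.

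The same relations were computed within each set of libraries, where the 6 give only 3 values a group, and the difference between the sets was not tested. Tsc22d3 and Sgk1 had r = 0.96 within the 6 most alike libraries and 0.91 within the other 10, and Mt1 and Mt2 had 0.55 and 0.96, respectively. Fkbp5 and Zbtb16 had r = 0.97 within the 10 libraries but -0.25 within the 6, where both genes varied little, and Zbtb16 and Mt2 had 0.90 and -0.52. Of the 9 pairs, 4 had the same sign in both sets. With the means of group and set subtracted, 6 pairs passed. Without PBS 4 the number of pairs that passed was 5, and without PBS 2 it was 14. Pdk4 was correlated with Mt1 only by r (0.67, adjusted permutation p = 0.0363), with a rho of 0.49 and an adjusted permutation p of 0.185 for rho. The receptor mRNA was negatively correlated with Zbtb16. Nr3c1 and Zbtb16 had r = -0.71 and rho = -0.68 (adjusted permutation p = 0.0223 for r), but r was -0.43 without EAE 4 and PBS 4 and 0.71 within the 6 libraries. For Nr3c1 and Fkbp5, r was -0.62 (adjusted permutation p = 0.0812) and rho was -0.66 (adjusted permutation p = 0.0442), and r was -0.24 without EAE 4 and PBS 4. All values share the same libraries and their depth.

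**Figure D4:**
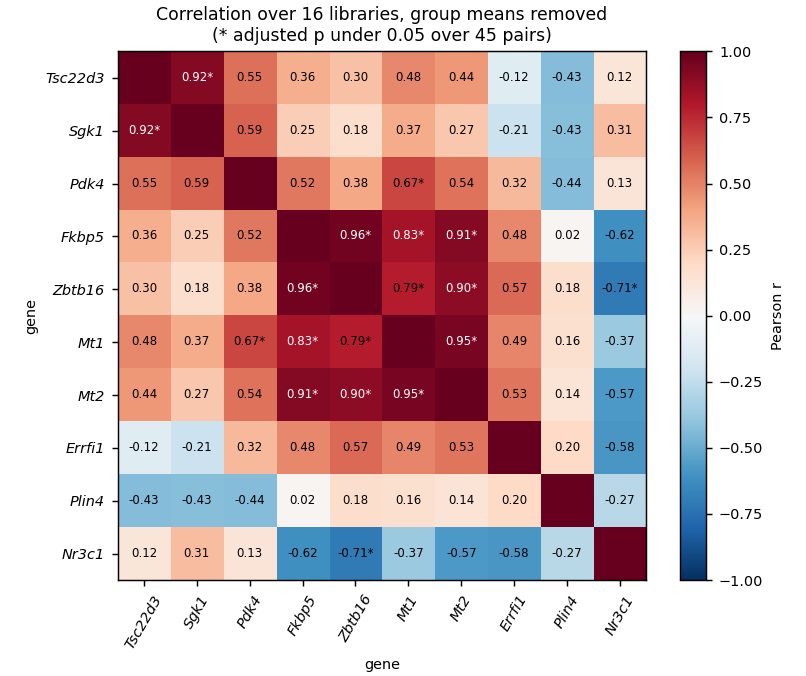
Pearson r between each pair of the 10 genes over 16 libraries after group means were subtracted from log2 CPM, with an asterisk where the adjusted p over 45 pairs is under 0.05. Fkbp5, Zbtb16, Mt1 and Mt2 have r between 0.79 and 0.96 with each other, and Tsc22d3 and Sgk1 have 0.92.

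Among 14749 other mRNAs with a mean CPM of at least 1, those most like each gene over the 16 libraries were listed by the same r, as a description without a test. Cdkn1a, which encodes the cell cycle inhibitor p21, was the mRNA most like both Fkbp5 (r = 0.97) and Zbtb16 (r = 0.97). Next were Plekhm2 for Fkbp5 (r = 0.93) and Cog2 for Zbtb16 (r = 0.93). Tsc22d3 was most like Cxcl14 (r = 0.98), a chemokine, and Cox8a (r = 0.97), a subunit of cytochrome c oxidase. Sgk1 was most like Cox7c (r = 0.95), another subunit of that enzyme, and Entpd2 (r = 0.94). For Mt1 the closest were Pim3 and Mapk4 (r = 0.93 and 0.92), for Mt2 Clic4 and Galnt15 (0.93 and 0.92), and for Pdk4 H3f3b and Rab5a (0.93 and 0.92). Errfi1 was closest to Klf6 and Gcc1 (0.93 and 0.88), Plin4 to Gpc4 and Map6 (0.93 and 0.90), and Nr3c1 to Enpp4 and Foxp2 (0.95 and 0.94).

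A further 25 genes known to be induced by glucocorticoids were examined in the same edgeR fit. Of these, 22 had a negative log2FC in EAE mice, with a median of -0.17, and 2 were called lower and 1 higher, where 1.76% and 0.654% of all tested mRNAs were. The called-lower genes numbered 1 with RLE factors, without a filter or with filterByExpr, and 0 with library totals or by limma. Klf15, a transcription factor of amino acid and glucose metabolism, had a lowest, median and highest FPKM of 9.17, 9.46 and 11.4 in EAE libraries and 9.67, 12.03 and 12.7 in PBS libraries. Of its EAE libraries, 6 lay below the lowest PBS library, and the log2FC was -0.28 (SE 0.07, edgeR adjusted p = 0.0309). Ddit4, an inhibitor of mTORC1 signaling, had 20.9, 23.5 and 34.5 in EAE libraries, with EAE 5 the highest, and 27.6, 31.0 and 36.5 in PBS libraries. Its log2FC was -0.35 (SE 0.09, edgeR adjusted p = 0.04996, just under the threshold). When single libraries were left out, Klf15 was called in 4 and Ddit4 in 3 of the 16 fits. Anxa1, which encodes the anti-inflammatory protein annexin A1 and is abundant in neutrophils and monocytes, had 3.22, 3.58 and 3.85 in EAE libraries and 1.32, 2.08 and 2.43 in PBS libraries. All its EAE libraries lay above all PBS libraries, with a log2FC of 0.81 (SE 0.14, edgeR adjusted p = 0.00624), and it was called in all 16 fits. Beside it, all 10 neutrophil markers had a positive log2FC, and their summed CPM was 41.0 to 77.2 in EAE and 15.1 to 45.5 in PBS libraries, with none of the 10 at 0 throughout. The part of neutrophil RNA in the Anxa1 result was not tested. Without EAE 5, 8 of the 25 genes were called, and without EAE 4, 7 were, against 3 with all libraries, while the share over all tested mRNAs went from 2.42% to 5.05% and 7.38%. DESeq2 called 4 lower and 1 higher, where it called 5.09% of all tested mRNAs. EAE 5 was the highest EAE library for 11 of the 25 genes and the lowest for 3, against 20.2% and 20.5% of all tested mRNAs.

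**Figure D5:**
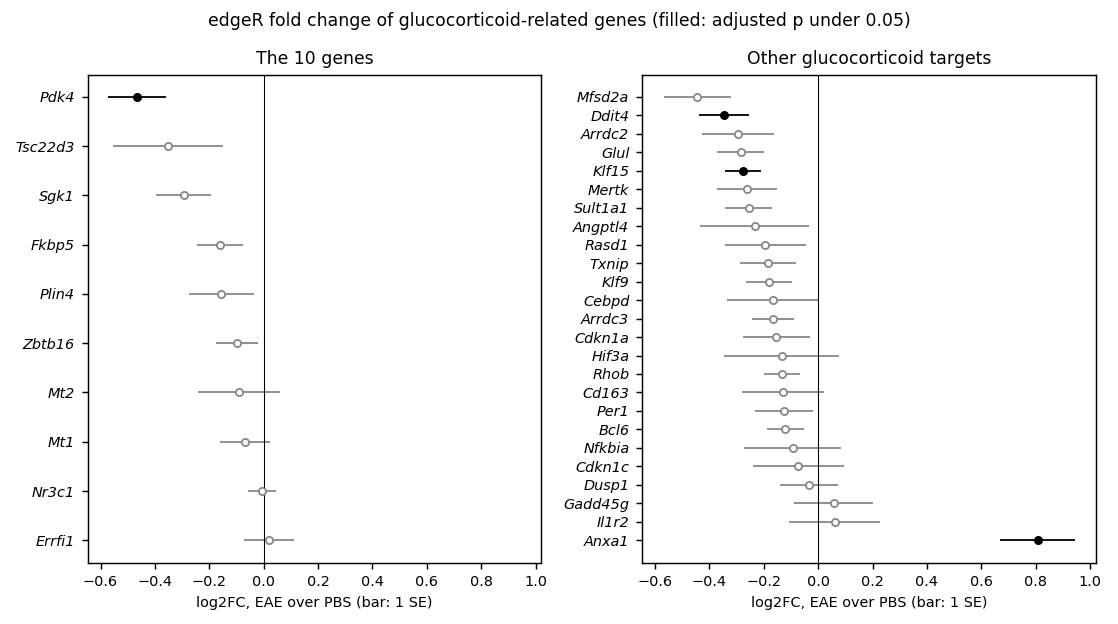
log2FC of EAE over PBS from edgeR for the 10 genes (left) and for 25 other glucocorticoid targets (right), with bars of 1 SE and filled points where the adjusted p is under 0.05. Points lie left of 0 for 9 of 10 and for 22 of 25 genes, and Anxa1 stands apart on the right at 0.81.

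Of 17 partners of the receptor, which include the related mineralocorticoid receptor, steroid dehydrogenases, chaperones and co-regulators, 12 had a negative log2FC, with a median of -0.03. Hspa8, the constitutive HSC70 chaperone that helps to fold the receptor, was the 1 called. Of all tested mRNAs, 2.42% were called, 1.76% as lower. It had a lowest, median and highest FPKM of 301.4, 333.9 and 388.8 in EAE libraries and 325.5, 398.8 and 435.7 in PBS libraries, and a log2FC of -0.28 (SE 0.06, edgeR adjusted p = 0.0175). Hspa8 was also called without any single library. By limma on log2(FPKM + 0.1) or log2(FPKM + 1), however, 0 of the 17 partners were called. Within the other 10 libraries, where 0.0745% of all tested mRNAs passed, 0 of them were called.

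Of 12 tested genes of the zinc and metallothionein system, 9 had a negative log2FC, with a median of -0.09, and edgeR called 0. DESeq2 also called 0. Without adjustment, 2 of the 12 had an edgeR p under 0.05, as did 17.4% of all tested mRNAs. The 2 were the zinc transporters Slc39a12, with a log2FC of -0.34 (SE 0.12, edgeR adjusted p = 0.124), and Slc39a14, with 0.23 (SE 0.10, adjusted p = 0.223). Mt4 did not reach 16 counts. Of 13 receptors, ligands and inhibitors of the EGF receptor family, which Errfi1 restrains, 8 had a negative log2FC, and edgeR and DESeq2 called 0. Of the 13, 2 had an unadjusted p under 0.05, beside the same 17.4% of all tested mRNAs. They were the receptor Erbb4 (log2FC -0.14, SE 0.06, edgeR adjusted p = 0.197) and the ligand Tgfa (log2FC -0.12, SE 0.06, adjusted p = 0.281).

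Close relatives of the 10 genes gave a scale for their levels, in median FPKM over the 16 libraries. Mt3, the neuronal metallothionein, had 270.2, between Mt2 and Mt1, with a log2FC of -0.20 (SE 0.11, edgeR adjusted p = 0.350). The mineralocorticoid receptor Nr3c2 had 18.0, above Nr3c1. The other pyruvate dehydrogenase kinases were all above Pdk4, with 8.52 for Pdk1, 30.6 for Pdk2 and 14.9 for Pdk3. Sgk3 had 7.43 and Sgk2 0.297, both below Sgk1, and Tsc22d1 had 28.3, Tsc22d4 23.0 and Tsc22d2 8.40. Plin4 was the most abundant perilipin, above Plin3 at 4.90, Plin2 at 3.78, Plin5 at 2.13 and Plin1 at 0.0684. Zbtb32 had 1.63. Of these relatives outside the receptor and zinc lists, edgeR called 0 of 13, and DESeq2 called 0. An unadjusted p under 0.05 from edgeR was found for 3 of the 13, and for 17.4% of all tested mRNAs.

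Marker lists of other cells that the sort could hold were read in the same edgeR fit. Called higher in EAE mice were Trem2 and Itgam of 17 microglia markers, Gfap of 12 astrocyte markers and Ngp, Ltf, S100a8 and S100a9 of 10 neutrophil markers. Called lower were Slc4a4 and Fgfr3 of astrocytes, Syt1 and Gad1 of 12 neuron markers and Vtn of 8 mural cell markers. EdgeR called 0 markers of oligodendrocytes, endothelial cells, monocytes and border macrophages or T cells, and DESeq2 called 1 oligodendrocyte marker. At an unadjusted p under 0.05 from edgeR these lists had 3, 0, 0 and 2, respectively, beside 17.4% of all tested mRNAs. The smallest p-values were those of Ly6c1 and Slc2a1 in the endothelial list, Ccr2 and F13a1 in the monocyte and border macrophage list, and Cd8a and Cd3e in the T cell list. Of the astrocyte markers, 10 of 12 had a negative log2FC, with a median of -0.22. The part of the mix of cells in the negative log2FC of 9 of the 10 genes was not tested.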

How the data were processed

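Total RNA of sorted CD11b+/CD45int brain cells was sequenced after removal of ribosomal RNA, in 8 EAE and 8 PBS libraries, 1 per mouse. The authors aligned reads to GRCm38 with HISAT2 2.1.0, counted them with HTSeq 0.11.2 and deposited raw counts per mRNA and FPKM values for the same mRNAs. The strand setting of the counting is not given in the sources used here. From the deposited counts, TMM-normalized log2 CPM (prior count 2) and differential expression were computed with edgeR 4.0.16 (quasi-likelihood test, two-sided, condition as the only term, R 4.3.3), for mRNAs whose counts summed to 16 or more. FPKM values were compared with an exact permutation test over the 12870 divisions of the libraries, given without adjustment. Alternatives were DESeq2 1.42.0, limma 3.58.1 on log2(FPKM + 0.1) and log2(FPKM + 1), other scalings, other filters, a replicate block, a term for 2 sets of libraries, each set alone and each library left out. Pair correlations used 100000 permutations within groups. The edgeR code was run on simulated counts, drawn without sets of alike libraries or single libraries that stand apart. That run therefore does not cover these features of the data. Counts of 404 to 8583 per library stood behind the 10 genes. Counting error was not compared with the spread between mice.

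All 10 genes are named. Of other lists, genes with an adjusted p under 0.05 are named, or else the 2 with the smallest p. Single genes of the oligodendrocyte list are not reported here. Relatives are named with their levels, and for each gene the 2 most like mRNAs. The members and lists were chosen with earlier results of these data known, and the sets of libraries were defined after the data were seen. Gene positions are from GENCODE M21, start sites and their sequences from RefSeq on GRCm38.p6, matched by symbol.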

Additional observations from a re-analysis of the deposited data

Results flagged for a closer look

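For 6 of the 20 combinations of gene and group, 1 library stood apart from the other 7, in that its gap to the nearest value, as a share of the group's range, was over Dixon's critical value for 8 values. For 8 independent normal values this rule flags about 1 group in 20. The share flagged over all tested mRNAs was not computed, so 6 of 20 cannot be read as particular to these genes. Of all tested mRNAs, EAE 5 was the highest EAE library for 20.2% and PBS 4 the lowest PBS library for 20.9%. In 5 of the 6 the library was EAE 5, the highest EAE library, with an FPKM of 27.0 for Fkbp5, 29.9 for Tsc22d3, 7.78 for Pdk4, 309.5 for Mt1 and 510.4 for Mt2. The gap was 0.536, 0.528, 0.667, 0.577 and 0.547 of the range, respectively. The remaining case was PBS 4, the lowest PBS library for Mt2, with an FPKM of 177.1 and a gap of 0.603 of the range. The 5 values of EAE 5 come from 1 library and are not independent of each other.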

How the results depend on the processing

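The log2FC of Plin4 was the only one of the 10 genes to reverse with a call, at 0.16 within EAE 6, 7, 8 and PBS 5, 7, 8. All tested mRNAs called numbered 432 (2.42%) with all libraries, 910 (5.09%) with DESeq2, 768 (4.29%) with the set term and 517 (2.89%) with a replicate block. They numbered 205 (1.15%) by limma on log2(FPKM + 0.1), 237 (1.33%) on log2(FPKM + 1) and 329 (1.84%) with library totals. With RLE factors, no filter and filterByExpr they numbered 428 (2.39%), 400 (2.03%) and 429 (2.71%). Within the 6 most alike libraries they numbered 4147 (24.1%), within the other 10 they numbered 13 (0.0745%), and without single libraries 144 to 1317 (0.807% to 7.38%). The counts of each list move against these shares. The 10 genes called numbered 1 with all libraries and again 1 with DESeq2, RLE size factors, library totals, no filter and filterByExpr. They numbered 0 by limma on log2(FPKM + 0.1) or log2(FPKM + 1), where the adjusted p of Pdk4 was 0.0546 and 0.0572, 2 with the set term, 4 within the 6 most alike libraries and 0 within the other 10. Without single libraries the number ranged from 0 to 3. With both thresholds it was 0 in every fit run here. Other glucocorticoid targets numbered 3 with all libraries, 5 with DESeq2 or the set term, 1 with limma at either pseudocount or with library totals, 2 with RLE factors, no filter or filterByExpr, 11 within the 6 libraries and 0 within the other 10, and 1 to 8 without single libraries. Receptor partners numbered 1, 2 with DESeq2 or the set term, 0 with limma, 6 within the 6 libraries, 0 within the other 10 and 1 to 3 without single libraries. Zinc system genes numbered 0, 1 with the set term, 5 within the 6 libraries and 0 to 1 without single libraries. EGF receptor family genes numbered 0, 6 within the 6 libraries and 0 to 1 without single libraries. Within the 6 libraries edgeR compares 3 mice with 3, and an exact permutation test on FPKM cannot go below p = 0.1 there. Correlated pairs numbered 9, or 10 on log2(FPKM + 0.1), 9 by Spearman rho, 6 with group and set means subtracted and 5 (without PBS 4) to 14 (without PBS 2) without single libraries. The causes were not tested.

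With a replicate block, edgeR called 1 of the 10 genes, Pdk4 again, with an adjusted p of 0.0130, and 4 other glucocorticoid targets. Over all tested mRNAs, 2.89% were called in that fit. The block changed no other call among the 10 genes. The labels do not pair the mice, and the correlation of same-numbered libraries' deviations ranged from -0.22 to 0.57. Of the 16 libraries, 4 were most like their own number in the other group.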
